A study of Homo sapiens with 3 samples.

Results

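Serpins are protease inhibitors that present an exposed loop as bait; when a protease cuts the loop, the serpin changes shape and traps the enzyme covalently. Members of clade B stay inside the cell and in leukocytes guard it against granule proteases that leak into the cytosol, whereas clades A, E and G are mainly secreted and act on proteases of blood, tissue and the cell surface. The transcripts of 9 such genes were followed here. They were SERPINB1, SERPINB2, SERPINB6, SERPINB8, SERPINB9 and SERPINB10 of clade B, SERPINE2, SERPINA1 and SERPING1. They are 9 of 25247 named genes in the deposited tables, and they were picked with their FPKM values in these same libraries known. Their differences are therefore given as descriptions with no test. FPKM counts fragments scaled to the length of the transcripts and to the number of mapped fragments in the library, so levels of different genes can be compared on it.

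The cells were OCI-AML2 R50, a culture of the established acute myeloid leukaemia line OCI-AML2; the labels do not explain R50. The romidepsin group had 2 libraries from cells exposed for 18 h to romidepsin, an inhibitor of class I histone deacetylases, and the control group had 1 library. All 3 were grown with 50 µM Ara-C (cytarabine) and 15% FBS, so the control cells carried the cytarabine exposure too. The dose of romidepsin is not given in the sources used here, and nothing says that the 2 libraries came from separate cultures, so the spread between them may be technical.

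For 8 of the 9 genes a row carried the gene's own name. SERPINB8 was read only in a row shared with HMSD, a serpin-domain gene next to it, so its values belong to both genes. SERPINB2 was listed in 2 rows, which were summed and are also given apart. A gene was tested, or ranked among all genes, when at least 1 library reached 1 FPKM, which held for 8 of the 9. SERPING1 stayed under that level, and SERPINB9 and SERPINA1 passed it only through the romidepsin libraries. The summed FPKM was 668773 and 657213 in the romidepsin libraries and 790922 in the control. Spacing of the lowest values corresponds very roughly to 25000000 and 23000000 fragments in the romidepsin libraries and 21000000 in the control. Over 11708 tested genes, the SD of the difference in log2(FPKM + 1) was 0.14 between the romidepsin libraries, and 0.68 and 0.69 between each of them and the control. All 8 myeloid markers of the marker list reached 1 FPKM (summed level 3511 and 3462 FPKM in the romidepsin libraries and 5910 FPKM in the control). LYZ alone made up most of the control sum, so these sums do not show that the 8 markers moved together. Of 6 T and NK cell markers, NKG7 and PRF1 reached 1 FPKM. The T and NK cell list summed to 58.1 and 60.0 FPKM with romidepsin and 99.1 FPKM in the control. None of 5 epithelial, 4 hepatocyte or 4 erythroid markers reached 1 FPKM. Of 5 fibroblast markers, 3 did, with COL1A2 and COL3A1 at 0 everywhere, and the list summed to 6.06 and 5.87 FPKM in the romidepsin libraries and 0.106 FPKM in the control. Markers of B cells (2.18 and 2.28 FPKM with romidepsin, 0.843 FPKM in the control) and of megakaryocytes (13.6 and 15.3 FPKM, against 8.55 FPKM) also summed higher, with MS4A1, PF4 and PPBP at 0 everywhere. The part of these lists in the results was not tested.

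The promoters of 7 of the 9 genes were held in a RefSeq table (build GRCh38.p14, 250 bases before to 50 bases after the start site), in 12 windows because several genes have more than 1 start. Windows are shown for 3 clade B genes: SERPINB9, the gene with the largest difference, SERPINB2, whose rows moved apart, and SERPINB1, the neighbour of SERPINB9 and the most abundant gene of the 9 with a row to itself. Capitals mark a TATAAA motif, the binding sequence of the basal transcription machinery, where it begins 35 to 25 bases before the start. Each reads 5′ to 3′ on the strand of the gene.
SERPINB9, chr6:2903260-2903559, minus strand: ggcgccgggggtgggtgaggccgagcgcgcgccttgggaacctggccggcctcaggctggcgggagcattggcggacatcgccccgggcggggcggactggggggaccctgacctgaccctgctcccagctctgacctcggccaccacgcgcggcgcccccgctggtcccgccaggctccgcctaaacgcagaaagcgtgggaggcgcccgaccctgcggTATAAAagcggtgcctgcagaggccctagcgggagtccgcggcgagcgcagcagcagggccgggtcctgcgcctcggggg
SERPINB2, chr18:63887455-63887754, plus strand: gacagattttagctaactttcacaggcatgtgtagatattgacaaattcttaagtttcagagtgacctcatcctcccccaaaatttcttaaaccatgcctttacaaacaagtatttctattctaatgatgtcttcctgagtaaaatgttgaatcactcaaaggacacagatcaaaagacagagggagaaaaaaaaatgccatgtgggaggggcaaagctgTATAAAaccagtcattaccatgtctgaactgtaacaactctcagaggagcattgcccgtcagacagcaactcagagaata
SERPINB1, chr6:2841814-2842113, minus strand: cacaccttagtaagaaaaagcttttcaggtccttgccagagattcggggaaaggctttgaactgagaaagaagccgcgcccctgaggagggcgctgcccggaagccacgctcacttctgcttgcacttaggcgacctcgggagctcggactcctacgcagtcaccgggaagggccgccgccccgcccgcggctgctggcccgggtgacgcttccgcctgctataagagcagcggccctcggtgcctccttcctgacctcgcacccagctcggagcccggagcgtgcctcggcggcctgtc

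In both SERPINB9 and SERPINB2 the TATAAA motif began 30 bases before the start site. Of all 35116 promoters, 2.17% had the motif begin anywhere from 35 to 25 bases before the start, on the strand of the gene. The rest of the sequence set SERPINB9 and SERPINB2 apart. The SERPINB9 window held 35 CpG dinucleotides and was 75.7% G and C, and 14.1% of all promoters had at least as many CpG. The SERPINB2 window held 1 CpG and was 39.0% G and C. SERPINB1 had 27 CpG and no TATAAA on either strand, and the median promoter had 14 CpG. Over the whole window and both strands, TATAAA occurs in 11.5% of promoters. The GC box GGGCGG, bound by SP1, occurs in 44.95%. SERPINB9 and SERPINB1 each held 2 copies, which overlapped by 1 base, and SERPINB2 held none. A simplified NF-kB consensus (GGGA, any 4 bases, CC) occurs in 25.6% of promoters and was found once each in SERPINB9, SERPINB1 and the fourth window of SERPINB6. The AP-1 site TGANTCA occurs in 7.71%, and was found once in SERPINB2 and 2 times in SERPINB8. Different motifs did not overlap each other in these windows. A match is a run of letters and no measurement of binding.

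**Figure D1:**
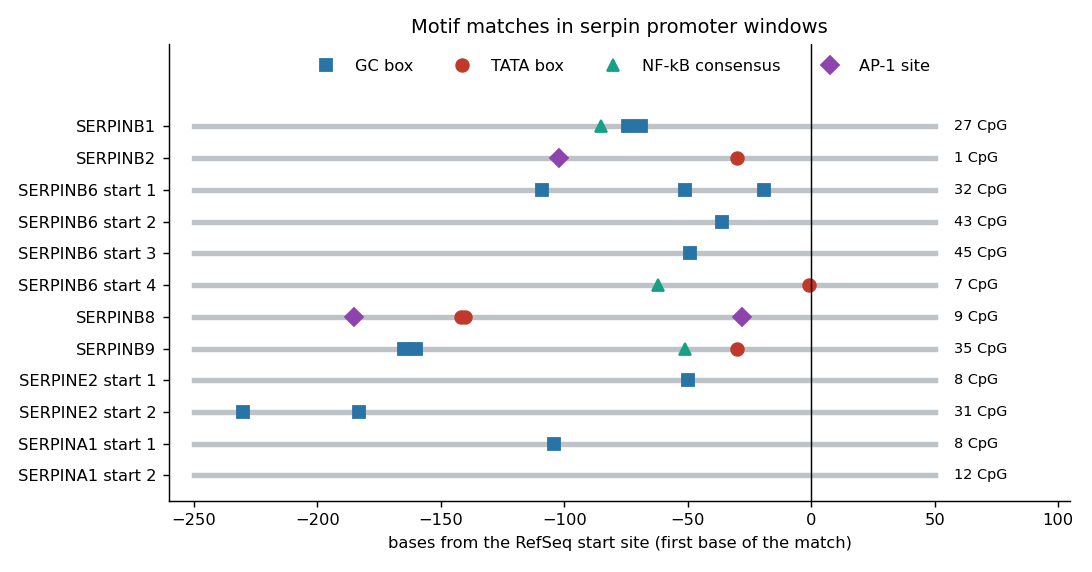
Matches to 4 motifs in 12 promoter windows of 7 serpin genes. The horizontal axis is the distance in bases from the RefSeq start site to the first base of the match, each grey bar is 1 window from 250 bases before to 50 bases after the start, and the number of CpG dinucleotides stands at the right; SERPINB9 and SERPINB2 carry a TATA box at -30 with 35 and 1 CpG.

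SERPINB9 differed most between the groups. This gene encodes the inhibitor of granzyme B, the protease that cytotoxic lymphocytes inject into their targets. It had 18.1 and 17.5 FPKM in the romidepsin libraries, against 0.516 FPKM in the control. Both romidepsin values lay far above the control and close to each other (17.8 ± 0.461, SD, n = 2). The difference was 3.63 ± 0.04 on the log2(FPKM + 1) scale (SD, n = 2), the 11th highest of 11708 genes. No fold is given because the control lay under 1 FPKM, at very roughly 43 fragments; the difference was 4.86 with a pseudocount of 0.1 and 3.30 with quantile normalization. By Euclidean distance of log2(FPKM + 1) over the 3 libraries, the most similar genes were SGK1, CD86 and ADAM28. SGK1, a serum- and glucocorticoid-regulated kinase, stood at 17.7 and 17.6 FPKM with romidepsin and 0.597 FPKM in the control. CD86 had 19.1 and 19.9 FPKM with romidepsin and 0.548 FPKM in the control, and ADAM28, a membrane metalloprotease, had 14.9 and 16.1 against 0.514 FPKM. The pseudogene SERPINB9P1 was listed at 0 and 0.0745 FPKM in the romidepsin libraries and at 0 in the control.

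SERPINE2 came second. Its product, protease nexin 1, is a secreted inhibitor of thrombin and urokinase. It had 8.60 and 9.25 FPKM in the romidepsin libraries, against 1.76 FPKM in the control. Both romidepsin values were several times the control, 5.07-fold by the mean, and the log2 difference was 1.85 ± 0.07 (SD, n = 2). SERPINB9 and SERPINE2 were the 2 members at least 2-fold higher in both romidepsin libraries on the FPKM + 1 scale, a level met by 7.43% of all tested genes. No member was at least 2-fold lower in both, against 3.08% of tested genes. Because the members were picked on these values, nothing is read from these counts.

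SERPINA1 encodes alpha-1-antitrypsin, the main plasma inhibitor of neutrophil elastase. It had 1.13 and 0.951 FPKM in the romidepsin libraries and 0.390 FPKM in the control, very roughly 94, 74 and 28 fragments. Both romidepsin values were above the control by 0.55 ± 0.09 on the log2(FPKM + 1) scale (SD, n = 2), but after quantile normalization the 2 libraries straddled the control (mean difference -0.060). The 4 hepatocyte markers summed to 0.359 and 0.522 FPKM in the romidepsin libraries and 0.305 FPKM in the control. SERPING1 encodes C1 inhibitor, which restrains the first proteases of complement and plasma kallikrein. It had 0.0691 and 0.138 FPKM with romidepsin, about 4 and 6 fragments, and was listed at 0 in the control. At this depth no difference can be read for it.

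**Figure D2:**
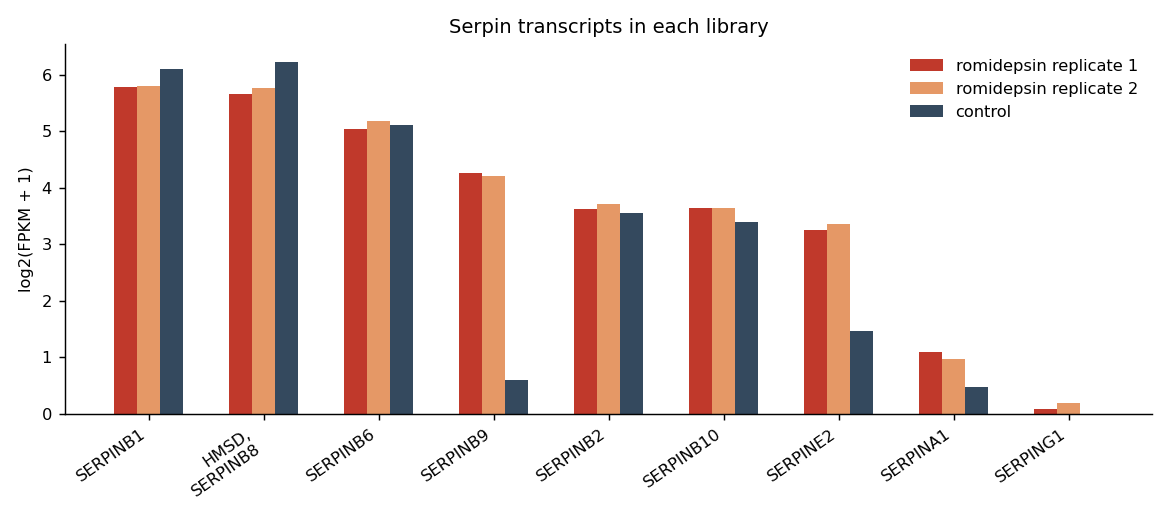
Level of each of the 9 serpin transcripts, as log2(FPKM + 1) on the vertical axis, in romidepsin replicate 1, romidepsin replicate 2 and the control; each bar is 1 library. SERPINB9 and SERPINE2 are far higher with romidepsin, while SERPINB1 and the HMSD and SERPINB8 row are lower and SERPINB6 lies on either side of the control.

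The abundant clade B genes were present in every library. SERPINB1, which encodes the cytosolic inhibitor of neutrophil elastase, proteinase 3 and cathepsin G, had 54.0 and 54.8 FPKM in the romidepsin libraries and 67.7 FPKM in the control. Both romidepsin values were lower, with a log2 difference of -0.31 ± 0.02 (SD, n = 2), which was -0.07 after scaling all libraries to an equal FPKM sum (equal-sum scaling) and -0.11 after quantile normalization. The joint row of HMSD and SERPINB8, the second a reported inhibitor of furin, had 49.9 and 53.7 FPKM with romidepsin and 74.4 FPKM in the control. It was the lowest of the members in log2 difference, at -0.51 ± 0.07 (SD, n = 2), and at -0.28 with equal-sum scaling. Its closest profiles were those of TMEM126B, CHCHD1 and COX14. TMEM126B had 50.5 and 53.1 FPKM with romidepsin against 72.7 FPKM in the control. For SERPINB6, an intracellular inhibitor of cathepsin G, the romidepsin values of 32.0 and 35.2 FPKM lay on either side of the 33.7 FPKM of the control. Its log2 difference was -0.0049 ± 0.09 (SD, n = 2) as deposited, and 0.23 with equal-sum scaling.

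SERPINB10, or bomapin, is a clade B serpin of haematopoietic cells. It had 11.4 and 11.6 FPKM in the romidepsin libraries and 9.49 FPKM in the control. The romidepsin values were nearly equal and both above the control, with a log2 difference of 0.25 ± 0.01 (SD, n = 2), and of 0.47 with equal-sum scaling. SERPINB2 encodes plasminogen activator inhibitor 2, which blocks urokinase. Summed over its rows it had 11.3 and 12.2 FPKM with romidepsin and 10.8 FPKM in the control, a log2 difference of 0.12 ± 0.07 (SD, n = 2), and of 0.34 with equal-sum scaling.

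The sum hid opposite movements of its rows. The first SERPINB2 row had 10.8 and 11.5 FPKM in the romidepsin libraries and 6.85 FPKM in the control, a log2 difference of 0.63. The second had 0.512 and 0.764 FPKM with romidepsin and 3.90 FPKM in the control, a log2 difference of -1.59. The second row thus held 4.51% and 6.26% of the symbol's FPKM in the romidepsin libraries and 36.3% in the control. The tables do not say which transcripts a row stands for. Of 116 symbols in exactly 2 rows that both reached 1 FPKM, 25.9% had rows on opposite sides of the control in both romidepsin libraries. In 4.31% (5 symbols) each row was also at least 0.5 away from the control on the log2 scale, and SERPINB2 was 1 of the 5.

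**Figure D3:**
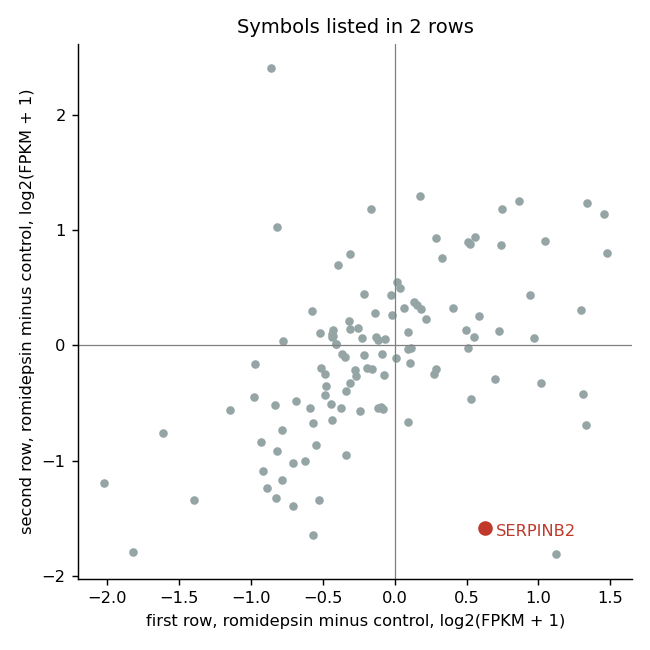
The 116 symbols listed in 2 rows, with the romidepsin minus control difference in log2(FPKM + 1) of the first row on the horizontal axis and of the second row on the vertical axis; each point is 1 symbol. SERPINB2 lies at 0.63 and -1.59, in the corner where the first row was higher and the second lower.

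By level in the romidepsin libraries the order was SERPINB1, the HMSD and SERPINB8 row, SERPINB6, SERPINB9, SERPINB2, SERPINB10, SERPINE2, SERPINA1 and SERPING1. Only SERPINB2 and SERPINB10 overlapped with their neighbour in this order; the gap between SERPINB1 and the joint row, at 54.0 against 53.7 FPKM, was smaller than the SD of the joint row. In the control the joint row stood first, and SERPINB9 stood below SERPINE2, in seventh place. As deposited, the 6 clade B genes together had 177 and 185 FPKM in the romidepsin libraries and 197 FPKM in the control. Within that sum SERPINB9 made up 10.3% and 9.45% with romidepsin and 0.262% in the control. The joint SERPINB8 row made up 28.2% and 29.04% with romidepsin and 37.8% in the control. As deposited, the total thus moved less than its make-up. Equal-sum scaling raised the log2 difference of each of these 6 genes. The total was not recomputed on that scale, so no direction is read for it.

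In all, 6 of the 9 genes were higher than the control in both romidepsin libraries, 2 were lower and SERPINB6 lay between. Among the 8 tested, 5 were higher and 2 lower, beside 43.8% and 51.4% of all tested genes. Their median log2 difference was 0.19, beside -0.05 over all tested genes. SERPINB9 and SERPINA1, among the 5 higher, could be tested only by being higher with romidepsin. Because the members were picked on these values, nothing is read from these counts or the median. Equal-sum scaling raised the median of all genes by 0.21, and on that scale SERPINB6 joined the higher genes while SERPINB1 and the joint SERPINB8 row remained lower. In bulk RNA, fewer cells of a type and less RNA per cell cannot be told apart. With 1 control library, a difference between cultures and that of romidepsin cannot be told apart.

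**Figure D4:**
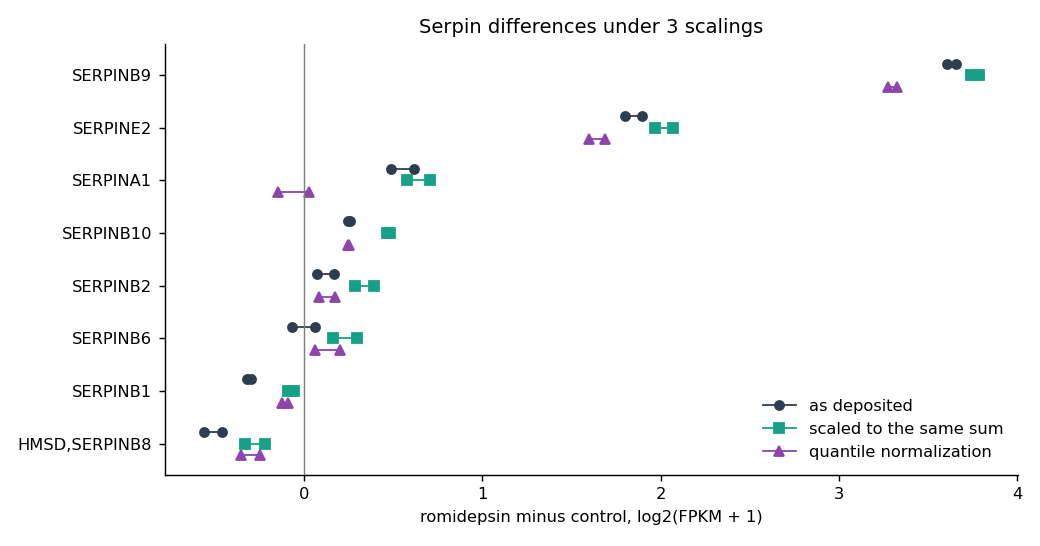
Romidepsin minus control difference in log2(FPKM + 1) for the 8 serpins that reached 1 FPKM, as deposited, with equal-sum scaling, or quantile normalized; the points joined by a line are the 2 romidepsin libraries. SERPINB9 and SERPINE2 stay far to the right under all 3 scalings, SERPINA1 crosses 0 with quantile normalization, and SERPINB6 crosses 0 as deposited.

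The clade B members lie in 2 gene clusters. SERPINB1, SERPINB9 and SERPINB6 are consecutive protein-coding genes of the cluster at 6p25, in the gene order of RefSeq, and their log2 differences were -0.31, 3.63 and -0.0049, so the neighbours of SERPINB9 did not share its difference. Genes flanking the cluster were tested with limma, with Benjamini-Hochberg adjustment over all 11708 genes, of which 34.7% were called higher and 41.8% lower. NQO2, a quinone reductase gene beside SERPINB6, rose to 33.1 and 33.1 FPKM in the romidepsin libraries, against 12.3 FPKM in the control (limma adjusted p = 4.62e-07). BPHL rose to 5.49 and 5.14 FPKM, against 2.61 FPKM in the control (limma adjusted p = 7.44e-05). Between them lies RIPK1, a kinase of inflammatory and death signalling, at 5.33 and 5.20 FPKM with romidepsin and 5.72 FPKM in the control (limma adjusted p = 0.233, and 0.0396 after quantile normalization). On the other side MYLK4 fell to 0.626 and 0.670 FPKM with romidepsin, against 2.08 FPKM in the control (limma adjusted p = 0.00039). WRNIP1, also there, was called lower by 0.26 on the log2 scale (limma adjusted p = 0.0016), but not with equal-sum scaling (adjusted p = 0.717) or quantile normalization (adjusted p = 0.139).

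The cluster at 18q21 holds SERPINB2, SERPINB10 and SERPINB8 together with SERPINB3, SERPINB4, SERPINB5, SERPINB7, SERPINB11, SERPINB12 and SERPINB13, genes known mainly from epithelia. The epithelial serpins were at or near 0 in all libraries, with 0.0967 FPKM of SERPINB12 in romidepsin replicate 1 the highest value. On one side of the cluster VPS4B and KDSR were called higher, by 0.22 and 0.25 on the log2 scale (limma adjusted p = 0.00352 and 0.00391). BCL2, the survival gene, was called lower, at 30.9 and 32.0 FPKM with romidepsin and 39.5 FPKM in the control (limma adjusted p = 0.00038), but not with equal-sum scaling (adjusted p = 0.124). On the other side CDH7, CDH19 and DSEL were listed at 0 in every library.

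Of 27 further serpin genes, 6 reached 1 FPKM. In the limma fit 3 rose and 3 fell, beside 34.7% and 41.8% of all tested genes (median log2 difference -0.17, beside -0.05 over all genes). With no filter or with a constant prior variance 2 rose. Of the 3 risers, 1 was under 1 FPKM in the control, so it could be tested only by being higher with romidepsin. The list was chosen with earlier results of these data known, so nothing is read from its counts or median. SERPINI1, which encodes neuroserpin, an inhibitor of tissue plasminogen activator known from neurons, rose to 31.0 and 31.9 FPKM with romidepsin, against 2.19 FPKM in the control. That was 14.3-fold by the mean (log2 3.35 ± 0.05, SE, limma adjusted p = 5.56e-08). SERPINH1, a collagen chaperone without inhibitory activity, fell to 16.3 and 17.3 FPKM with romidepsin, against 38.7 FPKM in the control, a 2.30-fold fall (limma adjusted p = 1.59e-06). AGT, or angiotensinogen, fell to 81.7 and 81.4 FPKM, against 118 FPKM in the control (limma adjusted p = 8.67e-06). The joint row of SERPINI2 and WDR49 fell by 0.80 on the log2 scale (limma adjusted p = 0.000213). The fibroblast marker list, given above, summed higher with romidepsin, as SERPINE2 was, whereas SERPINH1 was lower. The part of that list in SERPINE2 and SERPINH1 was not tested.

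Of 33 listed target proteases of serpins, 14 reached 1 FPKM. Of these, 9 rose and 4 fell, beside 34.7% and 41.8% of all tested genes (median log2 difference 0.63, beside -0.05). F12, CTSK and GZMM among the risers were under 1 FPKM in the control, so they could be tested only by being higher with romidepsin. This list was chosen with earlier results of these data known, so nothing is read from its counts or median. ELANE is also among the myeloid markers above. The 3 granule proteases inhibited by SERPINB1 all fell. CTSG, which encodes cathepsin G, had 468 and 461 FPKM with romidepsin and 1422 FPKM in the control, and ELANE, neutrophil elastase, had 233 and 236 FPKM against 581 FPKM. PRTN3, proteinase 3, had 285 and 290 FPKM with romidepsin and 682 FPKM in the control; the limma adjusted p of the 3 was at most 1.81e-07. Their summed FPKM was 18.3 and 18.0 times that of SERPINB1 in the romidepsin libraries and 39.6 times in the control. PLAU, which encodes urokinase, fell to 10.1 and 9.25 FPKM with romidepsin, against 14.7 FPKM in the control (limma adjusted p = 0.00016). Per FPKM of SERPINB2 there were 0.887 and 0.757 FPKM of PLAU with romidepsin and 1.37 FPKM in the control. Tissue plasminogen activator, PLAT, stayed between 0.0689 and 0.145 FPKM, and GZMB, the target of SERPINB9, was listed at 0 in all 3 libraries. FURIN, a proprotein convertase, rose to 24.2 and 22.7 FPKM with romidepsin, against 5.84 FPKM in the control (limma adjusted p = 4.18e-07). CTSV, a lysosomal cysteine protease, rose to 5.49 and 5.19 FPKM, against 1.74 FPKM in the control (limma adjusted p = 1.07e-05).

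Among 21 genes that store or activate granule proteases or act as receptors of plasminogen activators and serpin complexes, 17 were tested, 9 rose and 7 fell, beside 34.7% and 41.8% of all tested genes (median log2 difference 0.17, beside -0.05). With equal-sum scaling 11 rose and 5 fell, and with quantile normalization 10 and 5. Since this list too was chosen with earlier results of these data known, nothing is read from its counts or median. LRP1, the endocytic receptor that clears serpin-protease complexes, rose to 5.36 and 5.45 FPKM with romidepsin, against 0.263 FPKM in the control (limma adjusted p = 8.66e-07), and it reached 1 FPKM with romidepsin alone. PLAUR, the urokinase receptor, rose to 108 and 106 FPKM with romidepsin, against 39.1 FPKM in the control (limma adjusted p = 1.81e-07). ANXA2 and S100A10, which form a plasminogen-binding complex at the cell surface, rose together by 1.09 and 1.06 on the log2 scale (limma adjusted p at most 7.71e-07). SDC4, a heparan sulphate proteoglycan, rose by 1.65 (limma adjusted p = 5.63e-07). The genes named so far had the 5 largest called differences of the list, and all rose. Among the 7 that fell, THBD and VLDLR fell most, each with a log2 difference of -0.96. The granule genes AZU1 and SRGN were called lower too, and CTSC was called lower as deposited but higher with equal-sum scaling. The list also holds the coagulation genes F3 and F2R, called higher by 0.999 and 0.166 on the log2 scale. THBD, given above as lower, is another coagulation gene.

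Of 30 listed protease inhibitors of other families, 13 were tested. Of these, 9 rose and 2 fell, beside 34.7% and 41.8% of all tested genes (median log2 difference 0.54, beside -0.05). Nothing is read from these counts or the median, as this list was also chosen with earlier results of these data known. SPINK2, a Kazal-type inhibitor, rose to 20.5 and 21.6 FPKM with romidepsin, against 0.278 FPKM in the control (limma adjusted p = 5.56e-08), and was under 1 FPKM in the control. SPINT1, a Kunitz-type inhibitor of membrane serine proteases, rose 5.19-fold, to 25.3 and 27.5 FPKM, against 5.09 FPKM in the control (limma adjusted p = 2.96e-07). TIMP2, a metalloprotease inhibitor, rose 2.45-fold (limma adjusted p = 5.26e-07). SLPI, a secreted inhibitor of elastase and cathepsin G, rose to 21.8 and 23.4 FPKM with romidepsin, against 12.9 FPKM in the control (limma adjusted p = 1.59e-05). CST7, which encodes cystatin F, fell 2.01-fold, to 9.80 and 10.4 FPKM, against 20.3 FPKM in the control (limma adjusted p = 6.2e-06).

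**Figure D5:**
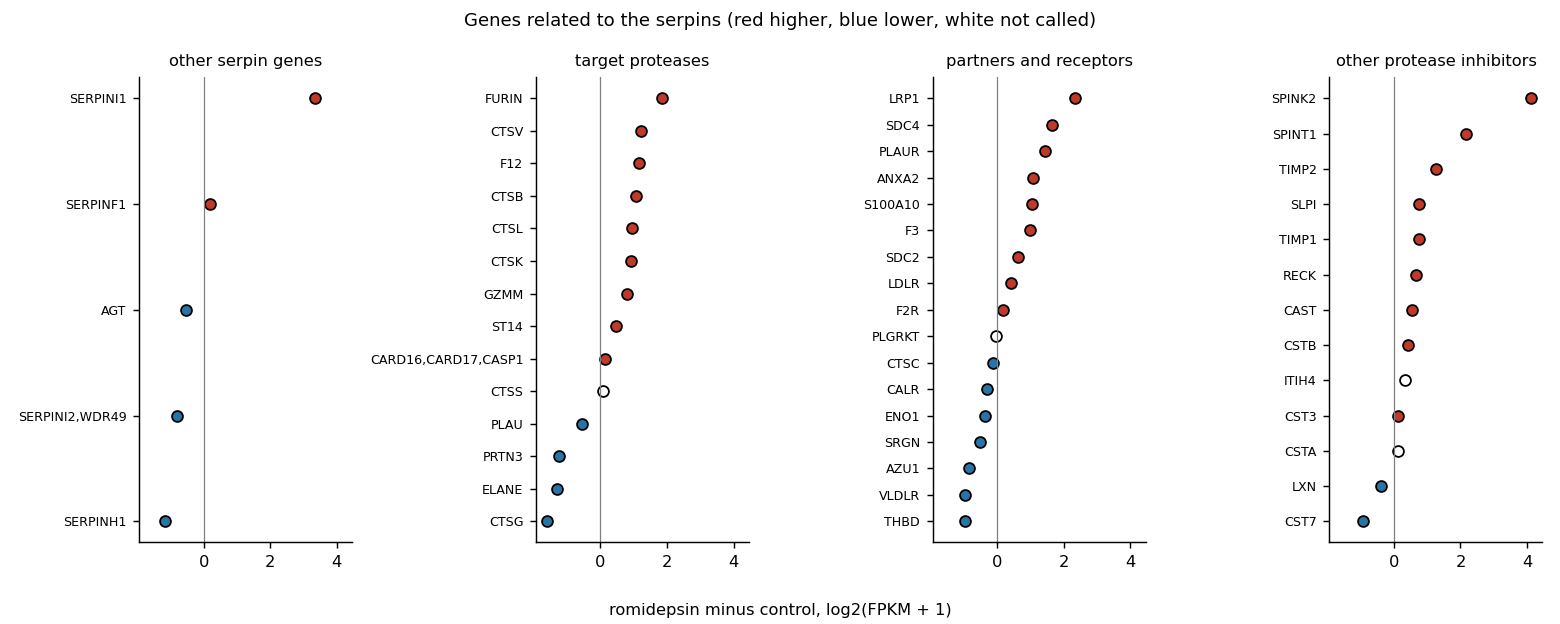
Romidepsin minus control difference in log2(FPKM + 1), on the horizontal axis, for tested genes of 4 lists; each point is 1 gene, the bars are the limma standard error and are mostly hidden by the points. Red is called higher, blue called lower and white not called; the granule proteases CTSG, ELANE and PRTN3 lie lowest in their panel and SPINK2 and SERPINI1 highest in theirs.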

How the data were processed

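RNA sequencing of 3 libraries of OCI-AML2 R50 cells, 2 treated with romidepsin and 1 control, was read from 1 table per library of 28837 rows. The values are FPKM as the authors deposited them, per the file headers. The submitters' processing notes name TopHat, Cufflinks, Cuffdiff and the build hg19, with no version, and the annotation behind the gene names is not given in these sources.

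The 1770 rows with no gene name (21.1% to 22.3% of the FPKM) and 27 rows named by a number were left out, and rows of 1 symbol were summed. Genes reaching 1 FPKM in at least 1 library were compared as log2(FPKM + 1) with limma 3.58.1 (R 4.3.3, mean-variance trend, two-sided, Benjamini-Hochberg over 11708 genes, threshold 0.05). Only the romidepsin pair gave a residual degree of freedom (1, beside 6.06 prior degrees), so the single control is assumed to vary as that pair does. The fit was tested on simulated data in which the control was drawn with the spread of the romidepsin pair. That simulation therefore cannot show how the calls hold if a separate control culture varies more. This scale understates changes of low genes. Depth was gauged from the spacing of low values with GENCODE transcript lengths, which is approximate. Motifs were matched on both strands in RefSeq promoters.

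The members and lists were chosen with earlier results of these data known. Named genes were all members, the 5 largest called differences in each list, any of ELANE, PRTN3, CTSG, GZMB, PLAU, PLAT and PLAUR that reached 1 FPKM, the 3 closest profiles of 2 members, and the genes beside 2 serpin clusters; genes named besides were singled out after their values were seen. A gene that this rule names is counted in its list and not reported here. The alternatives were pseudocounts of 0.1 and 0.5, no filter, a mean of at least 5 FPKM, equal-sum scaling, quantile normalization, single rows, a constant prior variance, and leaving out each romidepsin library. Python 3.11.15, pandas 2.3.3 and numpy 2.4.6 were used, with matplotlib 3.10.9 for plots.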

Additional observations from a re-analysis of the deposited data

How the results depend on the processing

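No paired analysis was possible because there is 1 control library, to which the labels give no replicate number. SERPINA1, which has few fragments in the control, straddled the control with quantile normalization, and only its mean changed sign (log2 difference -0.060). SERPINB6, which straddled the control as deposited, lay above it with equal-sum scaling and quantile normalization. The other 6 tested members kept their direction under every alternative that could be fitted. All 20 named list genes kept their direction wherever they could be fitted. With no filter, 4 calls were lost: SERPINI2 with WDR49 (adjusted p = 0.0942), PLAU (0.107), CTSV (0.0501) and SLPI (0.0719).

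Over all genes, 8953 were called, against 4135 with no filter, and 1231 were at least 2-fold apart in both libraries, against 1851 with a pseudocount of 0.1 and 772 with a mean of at least 5 FPKM. Called genes were 45.3% higher as deposited and 65.0% higher with equal-sum scaling; for 2-fold genes these shares were 70.7% and 87.4%. With no filter, 7 target proteases were called instead of 13, and 9 partners and receptors instead of 16. With quantile normalization, 1 other serpin gene instead of 3 and 3 target proteases instead of 7 were at least 2-fold apart. Leaving out 1 romidepsin library gave 1380 to 1381 such genes, 7 to 9 target proteases, and 6 to 7 members above the control. These fits have no test, since no replicate is left. The causes were not tested.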

Other observations

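The other symbols with 2 rows that moved apart by at least 0.5 each on the log2 scale, all singled out after their values were seen, were CD48, MAST3, RECK and SH2D3C. CD48, a surface protein of leukocytes, had 13.0 and 13.4 FPKM in 1 row with romidepsin, against 1.69 FPKM in the control, and 3.33 and 3.68 FPKM in its other row, against 7.16 FPKM in the control. RECK, a membrane-anchored metalloprotease inhibitor, had 19.0 and 19.5 FPKM in 1 row with romidepsin, against 8.31 FPKM in the control, and 0.331 and 0.360 FPKM in the other, against 3.73 FPKM in the control. SH2D3C had 17.6 and 17.1 FPKM in 1 row with romidepsin, against 7.98 FPKM in the control, and 2.23 and 1.71 FPKM in the other, against 4.21 FPKM. For MAST3 the rows stood at 12.1 and 12.6 FPKM with romidepsin, against 4.29 FPKM in the control, and at 10.6 and 11.7 FPKM with romidepsin, against 18.6 FPKM in the control. In SERPINB2 and RECK the row that was lower with romidepsin was under 1 FPKM there.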
